A study of Mus musculus with 18 samples.

Results

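The proteasome genes are the mouse genes whose symbols run from Psma to Psmg with a number. Of 48 such symbols in RefSeq, 45 were named by a probe set of the array, and Psmc6, Psmd10 and Psme4 were not analysed here. Each gene was represented by 1 probe set, the one with the highest mean over the 18 arrays. Of the 45 genes, 43 lay above the filter on low signal and were measured among 12822 genes that passed it. These 43 comprise 17 genes of the 20S core (Psma and Psmb), 18 of the regulatory particle and its assembly (Psmc and Psmd), and 8 others (Psme, Psmf and Psmg). The 2 below the filter were Psma8, the alpha subunit of the testis, with a mean log2 signal of 4.67, and Psmb11, the beta subunit of the thymic cortex, with 5.07.

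The proteasome degrades proteins that carry a ubiquitin tag. Its barrel-shaped 20S core is built of outer rings of alpha subunits, which form the gate, and inner rings of beta subunits, some of which cut the chain. The 19S regulatory particle caps the barrel: its base of ATPases unfolds the substrate and its lid removes the ubiquitin. In brain, proteasomes turn over synaptic and damaged proteins, and in immune cells inducible beta subunits replace the catalytic ones. A poly(A) tail at the end of an mRNA can be lengthened or shortened in the cytoplasm, and CPEB4 is an RNA-binding protein that acts on such tails.

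The tissue was the cortex with the striatum of mice that were 6 weeks old. The 3 genotypes were WT, CPEB4 GT/+ (1 GT allele of Cpeb4 beside a normal one) and CPEB4 KO, with 2 animals each. The labels used here give neither the strain nor how the alleles were made. Each animal gave 3 arrays: INPUT (total RNA), WASH (RNA released from poly(U) agarose with 25% formamide, enriched for short tails) and ELUTED (RNA released with 90% formamide, enriched for long tails). Values are log2 signals made by the authors with RMA, which scales the arrays to each other, so the total amount of RNA in a fraction was not measured and every difference below is relative to the other genes on the arrays. A 1-unit log2 difference is a doubling of the signal, and values of different genes' probe sets cannot be ranked as levels. A gene is called where limma's two-sided test, adjusted by Benjamini-Hochberg over all 12822 genes, gave a p under 0.05.

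Cpeb4 itself had an INPUT log2 signal of 8.15 and 7.62 in the WT animals, 7.31 and 7.00 in CPEB4 GT/+ and 6.62 and 6.91 in CPEB4 KO, and the genotypes did not overlap. In INPUT the CPEB4 KO animals were thus at -1.12 (SE 0.19) relative to WT, which limma did not call (adjusted p = 0.253). Mean INPUT signals of cortical excitatory genes (4 of 5 listed) ran from 8.24 to 8.58 across the animals, and those of striatal projection neuron genes (6 of 7) from 8.88 to 9.22, so markers of both labelled regions were present. Genes of choroid plexus and ependyma (4 of 4) ranged more widely, from 6.31 to 7.76, and those of pituitary (2 of 3) from 6.02 to 6.86. The part of such tissue in the members' values was not tested. Between the 2 arrays of a group Pearson's r across probe sets was 0.982 to 0.996. The lowest was the pair of ELUTED arrays from CPEB4 GT/+, so counts, medians and calls that moved with either animal are also given without it. ELUTED arrays spread less across probe sets (SD 1.78 to 1.90) than WASH arrays (SD 1.95 to 2.01). P-values measure only the spread between these 6 animals, and bulk tissue cannot tell fewer cells of a type from less RNA per cell.

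The first comparison asked whether proteasome mRNAs were found with long or with short tails, by taking log2 ELUTED minus log2 WASH within each animal (the ELUTED over WASH ratio). Proteasome mRNAs lay on the short-tail side: 39 of 43 were lower in ELUTED over the 3 genotypes, where 48.5% of all genes were called lower. Another 2 were higher, against 24.9% of all genes, and 2 were not called. The median log2 ratio of the members was -0.85, against -0.18 over all genes. In 36 members every one of the 6 animals was below 0 (all genes, 47.8%), and in 2 every animal was above 0 (all genes, 23.7%). The order of the 43 ratios was much alike from animal to animal: over the 15 pairs of animals Pearson's r ran from 0.78 to 0.95 and Spearman's rho from 0.78 to 0.96, as a description across genes whose arrays were scaled together.

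The scaling between arrays moves these counts. Centring each array on the median of the kept genes raised the median of all genes from -0.18 to 0.17, with 30 members lower (26.1% of all genes under that scaling) and 4 higher (48.4%) and a members' median of -0.50. The 9 members that were no longer called lower were Psmc5, Psmd1, Psmd2, Psmd3, Psmd5, Psmd7, Psme1, Psmf1 and Psmg1, 0 of them core genes. This centring shifts every gene's mean ratio by the same amount, and these 9 were the members called lower whose ratios lay nearest 0. The lower core gene nearest 0, Psmb2, was at -0.68 in the reported scaling, so the absence of core genes follows from the ratios. Aligning the arrays on the hybridisation controls lowered the median of all genes to -0.68, where 41 members were lower (74.4% of all genes) and 0 higher (1.73%, limma, also 0 at an unadjusted p under 0.05), with a members' median of -1.35. With each of the 5 scalings tried, the members' median lay below that of all genes. All but quantile normalization differ by a shift of whole arrays, which moves members and all genes alike and so could not change this. After quantile normalization the members' median was -0.61, against -0.06 over all genes. Without CPEB4 GT/+ replicate 2, 37 members were called lower, 2 higher, and the median of the 43 came to -0.78, and without its replicate 1 the same values were 39, 2 and -0.94. The calls of 7 members near 0 ended when 1 animal was left out: Psmd1 without WT replicate 1, Psmd3 and Psmd5 without either WT animal or CPEB4 KO replicate 2, and Psmd7 without any 1 of the WT or CPEB4 KO animals. The other 3 were Psme3 without either WT animal or CPEB4 KO replicate 1, Psme1 without either WT animal, CPEB4 GT/+ replicate 2 or CPEB4 KO replicate 2, and Psmf1 without any animal but CPEB4 GT/+ replicate 1. Their adjusted p then lay between 0.0509 and 0.173 in limma.

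**Figure D1:**
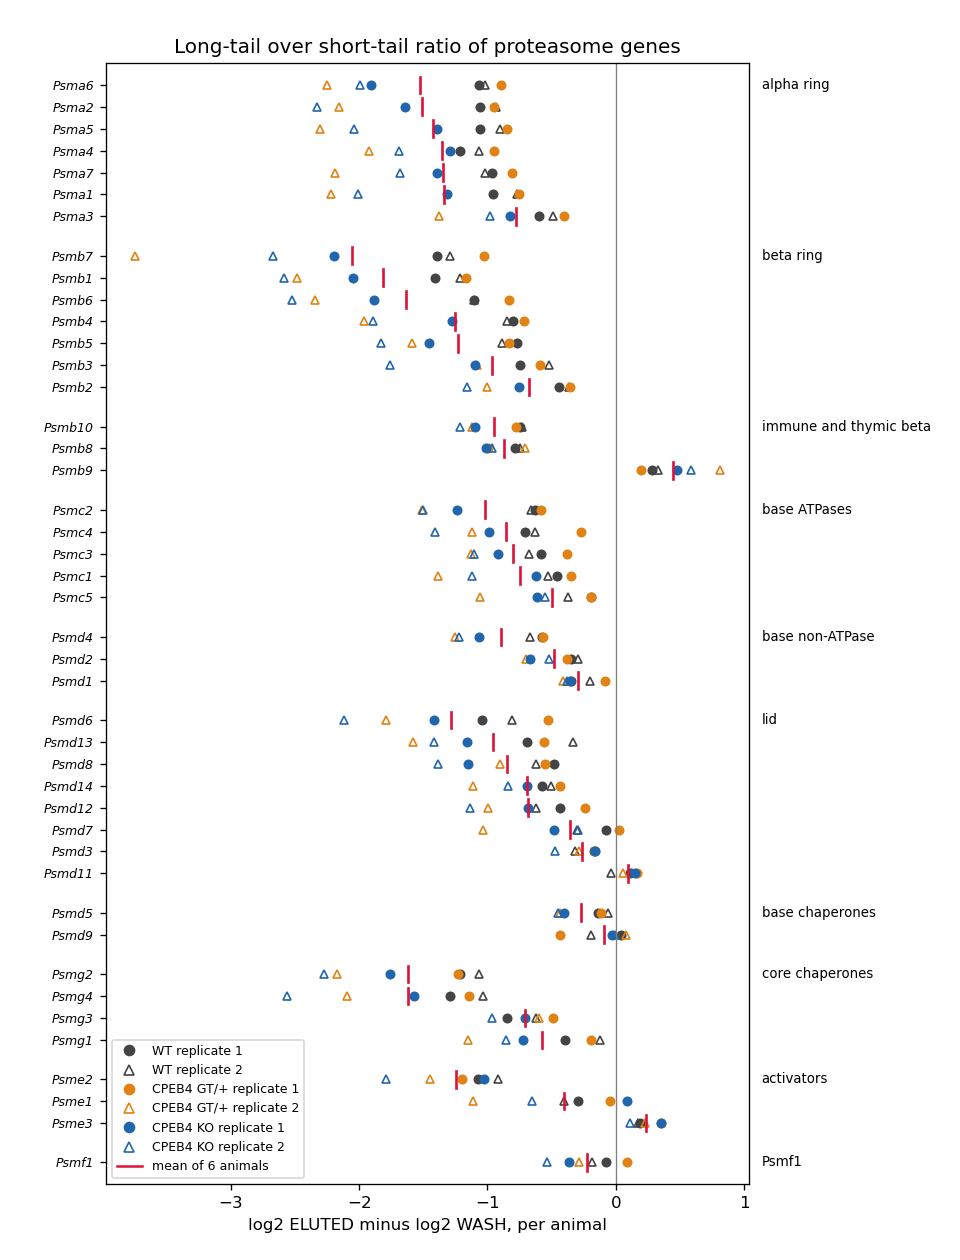
Each row is 1 of the 43 proteasome genes, grouped by role, and each point the log2 ELUTED minus log2 WASH value of 1 animal; colours mark genotypes, shapes the replicate number and the red bar the mean of the 6 animals. Most points lie left of 0, the alpha and beta rings furthest, with Psmb7 at -3.75 in CPEB4 GT/+ replicate 2, while Psmb9 and Psme3 lie right of 0 in all 6 animals (their means were -0.05 and -0.26 after alignment on the hybridisation controls).

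The alpha ring forms the outer gate of the core and binds the regulatory particle. All 7 of its measured subunits (Psma1 to Psma7) were lower in ELUTED, where 48.5% of all genes were called lower. Their median ratio was -1.36, with a range from -1.52 (Psma6) to -0.78 (Psma3). The ratio of Psma6 was -1.07 and -1.02 in WT, -0.90 and -2.25 in CPEB4 GT/+ and -1.91 and -1.99 in CPEB4 KO. All 6 animals were below 0, with CPEB4 GT/+ replicate 2 lowest and CPEB4 GT/+ replicate 1 highest. Its mean was -1.52 (SE 0.15, adjusted p = 0.000104). The ratio of Psma2 was -1.06 and -0.93 in WT, -0.95 and -2.16 in CPEB4 GT/+ and -1.64 and -2.33 in CPEB4 KO, and its mean was -1.51 (SE 0.16, adjusted p = 0.000112). Here CPEB4 KO replicate 2 was lowest, and the CPEB4 KO animals lay below the WT animals without overlap (31.2% of all genes). Psma5 (-1.42, SE 0.18), Psma4 (-1.36, SE 0.13), Psma7 (-1.34, SE 0.16) and Psma1 (-1.34, SE 0.18) lay close together. Psma3, the nearest to 0 of the ring, had ratios of -1.38 to -0.40 across the 6 animals and a mean of -0.78 (SE 0.12, adjusted p = 0.000632).

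The beta ring carries the catalytic sites of the core, in Psmb6 (caspase-like), Psmb7 (trypsin-like) and Psmb5 (chymotrypsin-like). All 7 constitutive beta subunits were lower in ELUTED (48.5% of all genes), with a median ratio of -1.25. Psmb7 had the lowest mean ratio of all members, -2.05 (SE 0.29, adjusted p = 0.000372). Its ratios were -1.39 and -1.29 in WT, -1.02 and -3.75 in CPEB4 GT/+ and -2.20 and -2.67 in CPEB4 KO, so all 6 animals were below 0 and the CPEB4 GT/+ pair lay furthest apart. The log2 ELUTED signal of Psmb7 was 8.56 and 8.51 in WT, 8.91 and 6.08 in CPEB4 GT/+ and 7.68 and 7.42 in CPEB4 KO, while its WASH signal ran from 9.80 to 10.09. The spread between animals thus lay in the long-tail fraction. Psmb6 had ratios of -1.10 and -1.11 in WT, -0.84 and -2.34 in CPEB4 GT/+ and -1.88 and -2.52 in CPEB4 KO, with a mean of -1.63 (SE 0.18, adjusted p = 0.000134). Psmb5 had ratios of -0.77 and -0.88 in WT, -0.83 and -1.59 in CPEB4 GT/+ and -1.46 and -1.83 in CPEB4 KO, with a mean of -1.23 (SE 0.11, adjusted p = 7.65e-05). In both genes the CPEB4 KO animals lay below the WT animals without overlap, as they did in 31.2% of all genes. Among the noncatalytic subunits Psmb1 was furthest from 0 at -1.82 (SE 0.16, adjusted p = 7.46e-05), followed by Psmb4 (-1.25, SE 0.16), Psmb3 (-0.97, SE 0.11) and Psmb2 (-0.68, SE 0.10).

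The immunoproteasome subunits Psmb8, Psmb9 and Psmb10 take the catalytic places in cells exposed to interferon, and they split. Psmb8 was lower in ELUTED at -0.87 (SE 0.07, adjusted p = 7.15e-05), and Psmb10 at -0.95 (SE 0.08, adjusted p = 6.5e-05). Psmb9 was higher in ELUTED, with ratios of 0.28 and 0.33 in WT, 0.20 and 0.81 in CPEB4 GT/+ and 0.47 and 0.58 in CPEB4 KO and a mean of 0.45 (SE 0.09, adjusted p = 0.00279), although its mean was -0.05 after alignment on the hybridisation controls. All 6 animals were above 0, and the WT animals and CPEB4 GT/+ replicate 1 were the lowest. Psmb9 was the only core gene with a positive mean ratio, and Psmb8 and Psmb10 varied less between animals (SD 0.14 and 0.22, n = 6) than the 7 constitutive beta subunits (SD 0.35 to 1.03).

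The base of the regulatory particle holds the ATPases that unfold the substrate and open the gate. All 5 measured ATPases were lower in ELUTED (48.5% of all genes), with a median ratio of -0.80. Psmc2 was furthest from 0, with ratios of -0.63 and -0.66 in WT, -0.58 and -1.51 in CPEB4 GT/+ and -1.24 and -1.50 in CPEB4 KO and a mean of -1.02 (SE 0.12, adjusted p = 0.000167). Its CPEB4 KO animals lay below its WT animals (31.2% of all genes), and CPEB4 GT/+ replicate 1 lay above both WT animals. Psmc4 (-0.85, SE 0.12), Psmc3 (-0.80, SE 0.10) and Psmc1 (-0.74, SE 0.13) followed, and Psmc5 was nearest to 0 at -0.50 (SE 0.11, adjusted p = 0.00411). Of the non-ATPase subunits of the base, the ubiquitin receptor Psmd4 was lower at -0.89 (SE 0.10, adjusted p = 0.000136). The large scaffold subunits Psmd2 at -0.48 (SE 0.08, adjusted p = 0.000706) and Psmd1 at -0.30 (SE 0.08, adjusted p = 0.0082) were also lower, although Psmd1 was at 0.06 with arrays centred on the kept genes.

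The lid removes ubiquitin through Psmd14, its deubiquitinating subunit, and holds 7 further measured subunits. Of these 8 genes, 7 were lower in ELUTED (48.5% of all genes), with a median ratio of -0.69 over the 8. Psmd6 was furthest from 0, with ratios of -1.04 and -0.81 in WT, -0.53 and -1.79 in CPEB4 GT/+ and -1.42 and -2.12 in CPEB4 KO and a mean of -1.28 (SE 0.16, adjusted p = 0.000234). CPEB4 GT/+ replicate 1 was the highest animal and CPEB4 KO replicate 2 the lowest. Psmd13 (-0.96, SE 0.13), Psmd8 (-0.85, SE 0.08), Psmd14 (-0.69, SE 0.10) and Psmd12 (-0.69, SE 0.11) were also lower. Nearer to 0 were Psmd7 at -0.36 (SE 0.13, adjusted p = 0.0341) and Psmd3 at -0.26 (SE 0.08, adjusted p = 0.0148), which was at 0.09 with arrays centred on the kept genes and 0.03 after quantile normalization. Psmd7, the partner of Psmd14, crossed 0 between animals, from -1.03 to 0.03. Its mean was -0.18, adjusted p = 0.0484, without CPEB4 GT/+ replicate 2, -0.0045, adjusted p = 0.972, with arrays centred on the kept genes and -0.10, adjusted p = 0.451, after quantile normalization. With the mean of its probe sets it was called higher (0.18, adjusted p = 0.0245).

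Psmd11, a structural lid subunit, had the ratio nearest to 0 of the lid genes. Its ratios were 0.11 and -0.04 in WT, 0.17 and 0.06 in CPEB4 GT/+ and 0.15 and 0.12 in CPEB4 KO, and its mean was 0.09 (SE 0.07, adjusted p = 0.249), which was not called. Its call and direction moved with the scaling: it was lower after alignment on the hybridisation controls (-0.40, adjusted p = 0.022), higher with arrays centred on the kept genes (0.45, adjusted p = 0.000536) and after quantile normalization (0.37, adjusted p = 0.00183), and at -0.02, not called, after centring on all probe sets. With the mean of its probe sets it was higher (0.14, adjusted p = 0.049). All 6 animals lay within -0.04 to 0.17, the narrowest spread of the 43 members (SD 0.08, n = 6). The other 2 probe sets of Psmd11 above the filter level had mean ratios of 0.18 and 0.00. The assembly chaperones of the base, Psmd5 and Psmd9, lay near 0 as well. Psmd5 was lower at -0.27 (SE 0.08, adjusted p = 0.0122), but at 0.09 with arrays centred on the kept genes and 0.05 after quantile normalization. Psmd9 was not called, at -0.09 (SE 0.09, adjusted p = 0.381). It was called higher with arrays centred on the kept genes (0.27, adjusted p = 0.042) and with the mean of its probe sets (0.39, adjusted p = 0.0011), and lower after alignment on the hybridisation controls (-0.58, adjusted p = 0.00177).

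The remaining 8 genes are assembly factors and alternative caps. The 4 chaperones of core assembly, Psmg1 to Psmg4, help place the alpha subunits in their ring. All 4 were lower in ELUTED (48.5% of all genes), with a median ratio of -1.16. Psmg4 had ratios of -1.29 and -1.04 in WT, -1.15 and -2.09 in CPEB4 GT/+ and -1.57 and -2.56 in CPEB4 KO, with a mean of -1.62 (SE 0.16, adjusted p = 8.98e-05). The ratios of Psmg2, the binding partner of Psmg1, were -1.22 and -1.07 in WT, -1.23 and -2.17 in CPEB4 GT/+ and -1.76 and -2.27 in CPEB4 KO, with a mean of -1.62 (SE 0.13, adjusted p = 6.44e-05). In both genes the 2 lowest animals were CPEB4 GT/+ replicate 2 and CPEB4 KO replicate 2. Psmg3 (-0.70, SE 0.08) and Psmg1 (-0.57, SE 0.12) were nearer to 0.

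The activator caps bind the core without ATP. Psme1 and Psme2 form 1 mixed ring (PA28 alpha and beta), and Psme3 forms the nuclear PA28 gamma ring. Psme2 had ratios of -1.08 and -0.92 in WT, -1.20 and -1.45 in CPEB4 GT/+ and -1.02 and -1.79 in CPEB4 KO and a mean of -1.24 (SE 0.11, adjusted p = 7.32e-05). Its partner Psme1 had ratios of -0.29 and -0.40 in WT, -0.05 and -1.11 in CPEB4 GT/+ and 0.09 and -0.65 in CPEB4 KO and a mean of -0.40 (SE 0.15, adjusted p = 0.0364). It was -0.23, adjusted p = 0.0933, without CPEB4 GT/+ replicate 2 and -0.05, adjusted p = 0.742, with arrays centred on the kept genes. The animals of Psme1 lay on both sides of 0, while those of Psme2 were all at or below -0.92. Psme3 was higher in ELUTED in all 6 animals, with ratios of 0.19 and 0.17 in WT, 0.35 and 0.23 in CPEB4 GT/+ and 0.35 and 0.11 in CPEB4 KO and a mean of 0.23 (SE 0.07, adjusted p = 0.0188), but its mean was -0.26 after alignment on the hybridisation controls. Psmf1, an inhibitor that binds the core, was lower at -0.23 (SE 0.08, adjusted p = 0.0318), with animals from -0.54 to 0.09, and was at 0.13 with arrays centred on the kept genes and 0.06 after quantile normalization.

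The promoters of the members were also read for shared letters. A link between promoter letters and tail fractions was not tested. Of the 43 members, 36 matched a promoter window of RefSeq (build GRCm38.p6), which spans 250 bases before the gene's start and 50 after it, as did 27025 genes in all. The antioxidant response core TGACNNNGC, bound by NRF factors that can drive proteasome genes, was found on either strand in 4 of 36 (11.1%: Psmb5, Psmb6, Psmd12 and Psmd9), against 14.0% of the genes with a window. CCAAT was found in 12 of 36 (33.3%), against 41.1%. Matches of the 2 motifs shared letters in 0 of the 36 members' genes and in 51 of the 27025. CCAAT was in 7 of the 14 core genes with a window and 4 of the 15 regulatory ones. The 250 bases before the start are printed 5′ to 3′ on the gene's strand, with motif letters in capitals, for 3 genes: Psma2, an alpha subunit far on the short-tail side, Psmb5, a catalytic subunit with the antioxidant response core, and Psmd11, the lid gene with the ratio nearest to 0. Their places are chr13:14612992-14613241, plus strand, for Psma2, chr14:54617996-54618245, minus strand, for Psmb5 and chr11:80428365-80428614, plus strand, for Psmd11. A match is a run of letters only, and no binding was measured.
Psma2: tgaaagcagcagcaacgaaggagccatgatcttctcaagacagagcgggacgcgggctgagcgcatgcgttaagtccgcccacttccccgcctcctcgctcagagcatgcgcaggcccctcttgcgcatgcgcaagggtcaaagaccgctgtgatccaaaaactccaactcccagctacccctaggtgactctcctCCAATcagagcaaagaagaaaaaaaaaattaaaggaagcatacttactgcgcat
Psmb5: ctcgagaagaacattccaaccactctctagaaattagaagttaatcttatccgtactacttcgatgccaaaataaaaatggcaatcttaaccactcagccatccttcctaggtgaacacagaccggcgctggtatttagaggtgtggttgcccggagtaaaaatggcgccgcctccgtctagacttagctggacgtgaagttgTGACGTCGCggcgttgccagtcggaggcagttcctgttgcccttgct
Psmd11: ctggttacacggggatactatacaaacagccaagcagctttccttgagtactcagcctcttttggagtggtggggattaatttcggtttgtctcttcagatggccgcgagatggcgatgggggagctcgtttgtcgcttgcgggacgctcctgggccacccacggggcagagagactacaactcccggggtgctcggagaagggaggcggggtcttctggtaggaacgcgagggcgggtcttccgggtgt

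The second comparison set the core against the regulatory particle. Of all genes 48.5% were called lower in this ratio and 24.9% higher. Of the 17 core genes 16 were lower in ELUTED and 1 was higher. Their median log2 ratio was -1.34, which is a signal 2.52-fold lower in ELUTED than in WASH. Of the 18 regulatory genes 16 were lower and 0 higher at an adjusted p under 0.05 in limma (also 0 at an unadjusted p under 0.05), with a median of -0.69, or 1.61-fold. The core median per animal was -0.95 and -0.88 in WT, -0.83 and -1.96 in CPEB4 GT/+ and -1.31 and -1.83 in CPEB4 KO. The regulatory median was -0.45 and -0.44 in WT, -0.36 and -1.05 in CPEB4 GT/+ and -0.68 and -0.97 in CPEB4 KO. The core median was below the regulatory one in 6 of 6 animals, by -0.51 and -0.45 in WT, -0.47 and -0.91 in CPEB4 GT/+ and -0.63 and -0.86 in CPEB4 KO, a mean of -0.64 ± 0.20 (SD, n = 6). No test was made of this difference, since subunits are not replicates. The median over all genes ran only from -0.26 to -0.11 across the animals.

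**Figure D2:**
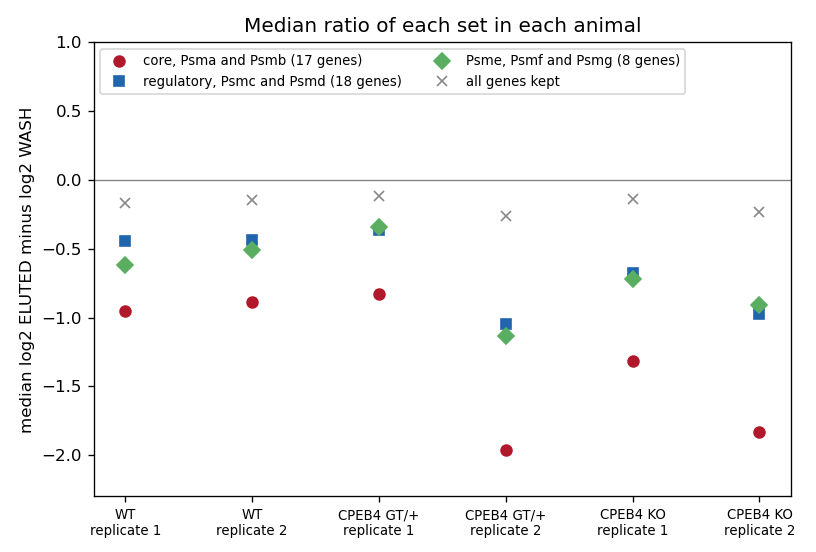
Points are the median log2 ELUTED minus log2 WASH value of each set of genes in each of the 6 animals. The core median (-0.83 to -1.96) is the lowest of the 4 sets in every animal, and the 2 CPEB4 GT/+ animals differ more than the 2 WT animals do.

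Signal strength moved with the ratio over all genes. When the 12822 genes were split into 4 bins of equal size by mean signal, the median ratio was 0.17 in the dimmest bin and -0.16, -0.41 and -0.30 in the next 3. Of the 43 members 29 were in the brightest bin, where 27 of them were lower against 58.2% of that bin's genes, and the members' median was -0.89. In the bins below it 7 of 7 and 5 of 7 members were lower, against 65.2% and 47.0%, and the dimmest bin held no member. The 17 core and 18 regulatory probe sets had about the same median signal, 9.85 and 9.83. The part of signal strength in the ratios was not otherwise tested.

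Each fraction was then set against INPUT, where core and regulatory medians differed in ELUTED and lay close in WASH. In ELUTED over INPUT, 34 of 43 members were lower (29.5% of all genes) and 2 higher (14.6%), with a median of -0.66 against -0.04 over all genes. The core median was -1.11, with 16 of 17 lower, and the regulatory median -0.45, with 12 of 18 lower. In WASH over INPUT, 29 members were higher (45.1%) and 1 lower (19.5%), with a median of 0.21 against 0.11, but 4 were higher (20.2%) and 10 lower (42.5%) with arrays centred on the kept genes. In the reported scaling of WASH over INPUT the core median (0.18) and the regulatory median (0.20) were alike in size. These comparisons share their INPUT arrays, so their values are given side by side only.

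Per animal, the members' median in ELUTED over INPUT was -0.41 and -0.38 in WT, -0.32 and -0.96 in CPEB4 GT/+ and -0.85 and -1.01 in CPEB4 KO. In WASH over INPUT it was 0.24 and 0.21 in WT, 0.18 and 0.22 in CPEB4 GT/+ and 0.15 and 0.20 in CPEB4 KO, a range of 0.15 to 0.24. The spread between animals thus lay in ELUTED, where CPEB4 GT/+ replicate 2 and both CPEB4 KO animals were lower than the other 3. Psmg2, at 0.77 (SE 0.10, adjusted p = 0.000251), and Psmd6, at 0.53 (SE 0.05, adjusted p = 6.74e-05), were the members most raised in WASH over INPUT. The 1 member called lower there was Psmd11, at -0.29 (SE 0.05, adjusted p = 0.00198), and its ELUTED over INPUT value was -0.19 (SE 0.07, adjusted p = 0.0649). Psmb9 and Psme3 lay close to 0 in WASH over INPUT, at 0.02 (SE 0.05) and 0.02 (SE 0.05), and were higher in ELUTED over INPUT, at 0.46 (SE 0.09, adjusted p = 0.00501) and 0.25 (SE 0.08, adjusted p = 0.028). Psmb7 was the opposite case, with -1.93 (SE 0.30, adjusted p = 0.00196) in ELUTED over INPUT and 0.12 (SE 0.05, adjusted p = 0.057) in WASH over INPUT.

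**Figure D3:**
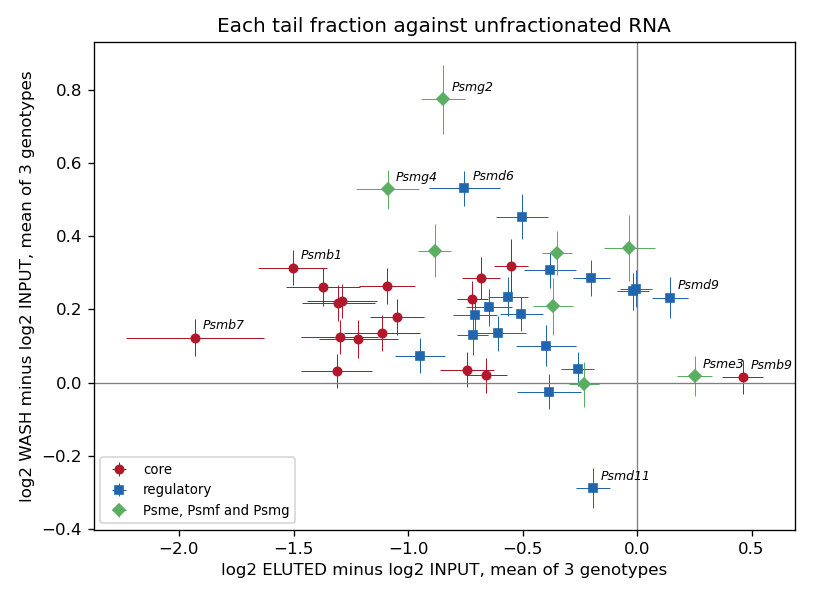
Each point is 1 of the 43 members, with the log2 difference of ELUTED from INPUT on the x axis and of WASH from INPUT on the y axis, means of the 3 genotypes with their SE as bars. Core genes reach furthest left (median -1.11, against -0.45 for regulatory genes) at a like height (0.18 and 0.20), and Psmd11 is the lowest member on the y axis, at -0.29.

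The ratio was also taken within each genotype, where the members' median was lowest in CPEB4 KO. In WT 21 of 43 were lower (22.2% of all genes) and 0 higher (4.73%, limma, also 0 at an unadjusted p under 0.05), with a median of -0.63. In CPEB4 GT/+ 33 were lower (36.2%) and 1 higher (13.7%), and the median was -0.85. In CPEB4 KO 36 were lower (38.7%) and 1 higher (16.1%), and the median was -1.15. The 1 higher gene was Psmb9 in both. With 1 animal left out, 2 residual degrees of freedom remain and the lone animal of a genotype is assumed to vary like the other genotypes, so these counts come from a smaller design than the reported ones. The members called in WT came to 0 without either WT animal, to 9 without either CPEB4 KO animal and to 34 without either CPEB4 GT/+ animal. Those called in CPEB4 GT/+ came to 18 without its replicate 2, and those in CPEB4 KO to 10 without its replicate 2. By quantile normalization 11 members were called in WT.

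The members' median per animal was -0.63 and -0.62 in WT, -0.53 and -1.13 in CPEB4 GT/+ and -1.01 and -1.21 in CPEB4 KO. CPEB4 GT/+ replicate 1 lay with the WT animals and CPEB4 GT/+ replicate 2 with the CPEB4 KO animals, so the CPEB4 GT/+ pair spanned almost the whole range. Of the 43 members, 20 were lowest in CPEB4 GT/+ replicate 2 and 19 in CPEB4 KO replicate 2. The spread of the ratio over all 12822 genes (SD across genes) was 0.48 and 0.41 in WT, 0.41 and 0.79 in CPEB4 GT/+ and 0.60 and 0.76 in CPEB4 KO, largest in the same 2 animals. The SD across probe sets of the ELUTED array was 1.83 and 1.84 in WT, 1.90 and 1.78 in CPEB4 GT/+ and 1.82 and 1.80 in CPEB4 KO, and the log2 signal of the 3′ minus the 5′ control probe set of Actb, a measure of RNA quality, was -0.40 and -0.40 in WT, -0.31 and -0.47 in CPEB4 GT/+ and -0.38 and -0.35 in CPEB4 KO on ELUTED arrays. CPEB4 GT/+ replicate 2 had the lowest value of both and CPEB4 GT/+ replicate 1 the highest. On WASH arrays the Actb value ran from -0.21 to -0.06, above the ELUTED value in every animal. On INPUT arrays it ran from -0.48 to -0.41. The part of these array properties in the members' ratios was not tested.

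Between genotypes, no member passed the test in the ratio. For CPEB4 KO minus WT 0 of 43 members were called (0% of all genes, limma, smallest adjusted p 0.756), with a median difference of -0.42 against -0.04 over all genes. It was -0.76 for the core and -0.36 for the regulatory genes. At an unadjusted p under 0.05, 11 members were lower (4.84% of all genes) and 0 higher (1.33%). Both CPEB4 KO animals lay below both WT animals in 34 members (31.2% of all genes), 16 of them core genes, and above in 2, Psmb9 and Psmd11 (20.6%). The 11 members at an unadjusted p under 0.05 came to 0 without CPEB4 KO replicate 2, 3 without WT replicate 1, 2 without WT replicate 2 and 25 without either CPEB4 GT/+ animal, and to 1 after alignment on the hybridisation controls.

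The members with the smallest p in that comparison were Psmd8, Psmb5 and Psmb3. Psmd8, a lid subunit, had ratios of -0.48 and -0.62 in WT, -0.55 and -0.90 in CPEB4 GT/+ and -1.15 and -1.38 in CPEB4 KO. Both CPEB4 KO animals were below all others. The difference from WT was -0.72 (SE 0.20, adjusted p = 0.756). Psmb3, a structural beta subunit, had ratios of -0.74 and -0.52 in WT, -0.59 and -1.08 in CPEB4 GT/+ and -1.10 and -1.76 in CPEB4 KO, and differed from WT by -0.80 (SE 0.27, adjusted p = 0.756). For Psmb5 the same difference came to -0.82 (SE 0.27, adjusted p = 0.756). The largest differences were those of Psmb6, -1.10 (SE 0.44, adjusted p = 0.756), and Psmb7, -1.09 (SE 0.70, adjusted p = 0.763). The 5 members above 0 were Psmb9 at 0.22 (SE 0.23, adjusted p = 0.82), Psmd11 at 0.10 (SE 0.17), Psme1 at 0.07 (SE 0.36), Psmd9 at 0.06 (SE 0.22) and Psme3 at 0.05 (SE 0.18). Psmd11 and Psme3 were at -0.07 and -0.12 after alignment on the hybridisation controls, and Psme3 at -0.07 without CPEB4 KO replicate 1. The SE of the 43 members ran from 0.17 to 0.70, which limits what 2 animals a group can show.

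For CPEB4 GT/+ minus WT 0 members were called in the ratio (0%, limma), and 0 reached an unadjusted p under 0.05 (lower, 0.515%; higher, 0.382%). The median difference was -0.29 against -0.03 over all genes, but 0.11 without CPEB4 GT/+ replicate 2 and -0.76 without its replicate 1. The animals did not overlap in 4 members that were lower (10.6%: Psmb10, Psmd2, Psme2 and Psmg2) and 2 that were higher (11.2%: Psme3 and Psmg3). The smallest p was that of Psmg2, at -0.56 (SE 0.32, adjusted p = 1), and the largest difference that of Psmb7, at -1.04 (SE 0.70, adjusted p = 1), which was 0.32 without CPEB4 GT/+ replicate 2. For CPEB4 KO minus CPEB4 GT/+ 0 were called (0%), with a median of -0.18 against -0.03 over all genes. It was -0.60 without CPEB4 GT/+ replicate 2, 0.11 without its replicate 1, -0.35 without CPEB4 KO replicate 1 and -0.07 without CPEB4 KO replicate 2. There 1 member reached an unadjusted p under 0.05 (lower, 1.10%; higher, 0.749%), Psmd8 at -0.54 (SE 0.20, adjusted p = 1), and both CPEB4 KO animals lay below both CPEB4 GT/+ animals in 4 (11.8%: Psmb3, Psmd8, Psmf1 and Psmg3) and above in 0 (9.74%). The comparisons share animals, so these values are not independent of each other.

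**Figure D4:**
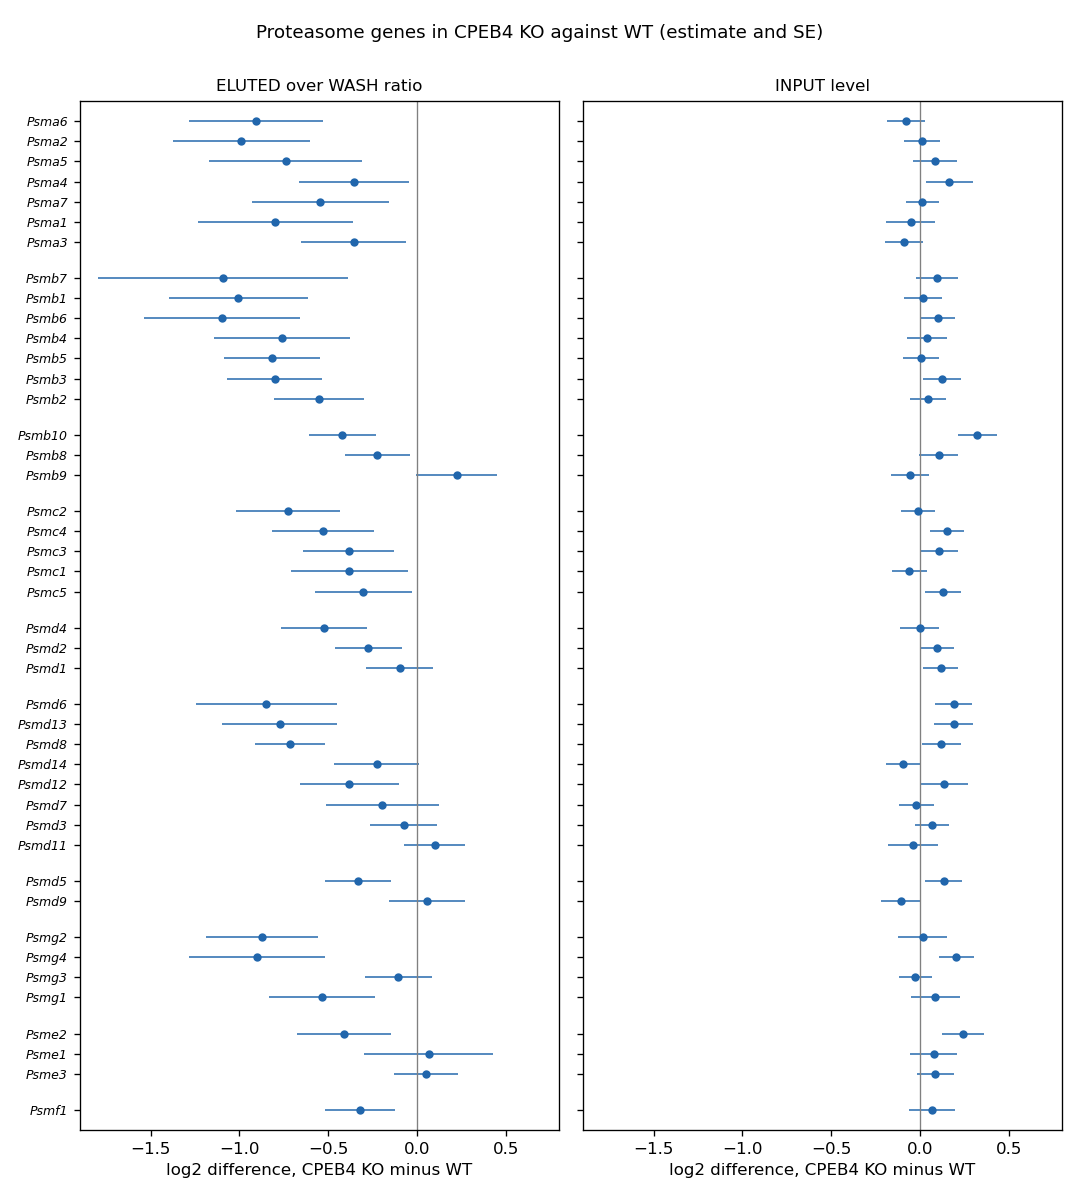
Points are the log2 difference of CPEB4 KO from WT for each of the 43 members, with its SE as a bar, in the ELUTED over WASH ratio (left) and in INPUT (right). The ratio differences spread to -1.10 (Psmb6), while the INPUT differences stay between -0.11 and 0.32; none passed the adjusted test.

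In total RNA no proteasome gene passed the test between genotypes. For CPEB4 KO minus WT in INPUT 0 of 43 were called (0%, limma; 1 at an unadjusted p under 0.05, where 7.28% of all genes were higher and 3.67% lower). Differences ran from -0.11 (Psmd9) to 0.32 (Psmb10), with a median of 0.08 against 0.03 over all genes and SE of 0.09 to 0.14. The members' median was -0.01 with arrays centred on the kept genes. Both CPEB4 KO animals were above both WT animals in 13 members (24.7%) and below in 1, Psmc1 (18.4%). The core median was 0.04 and the regulatory median 0.10.

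Psmb10, the immunoproteasome counterpart of Psmb7, was the member with the smallest p in INPUT. Its log2 INPUT signal was 9.43 and 9.41 in WT, 9.58 and 9.36 in CPEB4 GT/+ and 9.68 and 9.81 in CPEB4 KO. Both CPEB4 KO animals were above all others. CPEB4 KO minus WT was 0.32 (SE 0.11, adjusted p = 0.404). Psmb8 (0.11, SE 0.11) and Psmb9 (-0.06, SE 0.11) were closer to WT. Psme2, the activator subunit, had INPUT signals of 6.95 and 6.64 in WT, 6.96 and 6.92 in CPEB4 GT/+ and 7.08 and 7.01 in CPEB4 KO and a difference of 0.24 (SE 0.12, adjusted p = 0.494). Psmg4 differed by 0.21 (SE 0.10, adjusted p = 0.48). All 6 of 6 listed microglia markers also had a positive INPUT difference of CPEB4 KO from WT, with a median of 0.33. None was called (0 of 6, limma), and 4 reached an unadjusted p under 0.05. The difference was also above 0 in 5 of 5 astrocyte markers, 4 of 4 cortical excitatory markers and 57.2% of all genes. The mean INPUT signal of the microglia markers was 8.46 and 8.65 in WT, 8.69 and 8.58 in CPEB4 GT/+ and 8.87 and 8.81 in CPEB4 KO. The part of microglia in the values of Psmb10 and Psme2 was not tested. On the lower side, Psmd9 was at -0.11 (SE 0.11), Psmd14 at -0.10 (SE 0.10) and Psma3 at -0.09 (SE 0.11), within about 1 SE of 0.

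For CPEB4 GT/+ minus WT in INPUT 0 members were called (0%, limma), with a median of 0.03. The 1 member at an unadjusted p under 0.05 (higher, 1.73% of all genes; lower, 1.68%) was Psmd13, a lid subunit, at 0.30 (SE 0.11, adjusted p = 1). Its INPUT signal was 8.47 and 8.35 in WT, 8.80 and 8.63 in CPEB4 GT/+ and 8.68 and 8.53 in CPEB4 KO. Both CPEB4 GT/+ animals and both CPEB4 KO animals were above the WT animals. The CPEB4 GT/+ animals lay above both WT animals in 7 members (16.9%) and below in 3 (15.0%). For CPEB4 KO minus CPEB4 GT/+ 0 were called (0%), with a median of 0.04. Psmb10, at 0.27 (SE 0.11, adjusted p = 0.601), was the 1 member at an unadjusted p under 0.05 there (higher, 5.97%; lower, 2.17%). The CPEB4 KO animals lay above both CPEB4 GT/+ animals in 10 members (22.8%) and below in 3, Psma3, Psma6 and Psmd14 (15.2%). Both differences of Psmb10 rest on the same CPEB4 KO animals.

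The probe set chosen for a gene mattered for some members. The 43 genes had several probe sets in 17 cases and 1 in 26. In 11 genes more than 1 probe set was above the filter level, and in 5 of these (Psmd4, Psmd7, Psmd9, Psme3 and Psmf1) their mean ratios lay on both sides of 0. Psmd4 had ratios of -0.89 and -1.05 at 2 probe sets and 0.50 at another, dimmer one, with all 6 animals above 0. Psmd9 had -0.09 at the probe set used and 1.15 and 0.12 at the others. Psmd7 had -0.36 and 0.56, and Psme3 0.23 and -0.15. Psmf1 had -0.23, 0.15 and -1.02. None of these 5 is a core gene, but few core genes could show such a difference. Only Psma7, Psmb3 and Psmb9 among them had more than 1 probe set above the filter level. The position of the probe sets in the transcripts was not analysed here. With the mean over all probe sets of a gene, 37 members were lower (47.2% of all genes) and 4 higher (26%), and the core minus regulatory median was -0.79. Psmd7 was then at 0.18 and Psmd9 at 0.39.

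Other genes of the pathway were taken from a list of 31, of which 17 passed the filter. In ELUTED over WASH 13 of the 17 were lower (48.5% of all genes) and 2 were higher (24.9%). The median ratio was -0.73, against -0.18 over all genes. The lowest was Sem1, the small lid subunit also known as Dss1, at -2.08 (SE 0.18). Usp14, the deubiquitinase that sits on the regulatory particle, was at -1.50 (SE 0.17), and Pomp, the maturation factor of the core, at -1.49 (SE 0.15). Ecpas, an adaptor of the proteasome, was at -1.43 (SE 0.11), and Nfe2l1, the transcription factor that raises proteasome genes when activity falls, at -0.24 (SE 0.07). Of the measured ubiquitin shuttle factors, Rad23b was at -0.75 (SE 0.14), Ubqln1 at -0.58 (SE 0.16) and Ubqln4 at -0.37 (SE 0.08). Only Ubqln2 among them was above 0, at 0.69 (SE 0.07). Ecpas, Nfe2l1, Rad23b, Ubqln1 and Ubqln4 were chosen after their values were seen. Ubqln2 and Zfand2a (0.25, SE 0.07) were the 2 called higher. Between genotypes 0 of the 17 were called in the ratio or in INPUT for CPEB4 KO minus WT.

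Another pair of complexes gives a scale for these values. The COP9 signalosome is built like the lid, and the chaperonin TRiC folds newly made proteins. Of 9 COP9 genes 6 were lower (48.5% of all genes), with a median ratio of -0.81 (lowest, Cops5 at -1.51, SE 0.14), and of 8 TRiC genes 8 were lower, with a median of -0.64 (lowest, Cct8 at -1.05, SE 0.16). The regulatory median of -0.69 lay between them in size and the core median of -1.34 beyond both, differences that were not tested.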

How the data were processed

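Poly(A) tail fractions of mouse brain RNA (INPUT, WASH and ELUTED) from 6 animals were hybridised to 18 arrays. The deposited values are log2 signals; the submitters' processing notes name RMA, with no version given in the sources used here. RMA scales arrays to each other, so a change shared by most genes is lost. The table held 45141 probe sets, of which 28898 were named by 1 gene symbol, 551 by several (not used) and the rest, 104 controls among them, by none. The array annotation gave the names, and 28689 were matched to RefSeq by Entrez identifier. Files of arrays give no depth, and precision is limited by 2 animals per genotype.

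Of 17097 genes, the 25% with the lowest mean were left out (log2 signal under 5.52). ELUTED minus WASH was taken within each animal and fitted on genotype means with limma 3.58.1 in R 4.3.3 (lmFit, contrasts.fit and eBayes, 3 residual degrees of freedom). Both fractions minus INPUT were fitted alike, and INPUT alone by genotype. P-values are two-sided and Benjamini-Hochberg adjusted over 12822 genes. The fit was tested on simulated data with independent noise, of the same SD per gene in every animal. That test does not cover a spread that differs between animals. The alternatives tried were the scaling, the filter, the probe set, the variance model, the pairing and leaving out each animal. Promoter sequences are RefSeq's (GRCm38.p6).

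The members and lists were chosen with earlier results of these data known. Every member could be named in the ratio over the 3 genotypes. Between genotypes the rule was the members called or, where fewer than 3 were, the 3 with the smallest p in each direction, and of the other lists up to 3 called genes in each direction. Genes named beyond that rule were chosen after their values were seen. In CPEB4 KO minus WT these were Psmb6, Psmb7, Psme1 and Psmd9, and in INPUT Psmb8 and Psmb9. Of the pathway list they were Ecpas, Nfe2l1, Rad23b, Ubqln1 and Ubqln4.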

Additional observations from a re-analysis of the deposited data

How the results depend on the processing

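Of the 43 members, 41 were called in ELUTED over WASH over the 3 genotypes, and 34 to 42 under the other settings and with animals left out. The count for ELUTED over INPUT (36) ranged from 30 to 39, and the core minus regulatory median (-0.64) from -0.79 to -0.58. A shift of whole arrays, the variance model or a block cannot move that median difference. Its range thus bears only on the other settings and the animals left out. Genotype comparisons had 0 calls throughout. With each animal left out in turn the members called ranged from 0 to 34 in WT (21 with all), from 18 to 38 in CPEB4 GT/+ (34) and from 10 to 39 in CPEB4 KO (37). Quantile normalization gave 11 in WT and 19 in WASH over INPUT (30 with the reported setting), and centring on the kept genes, chosen after seeing the data, gave 14 there. The replicate number as a block across genotypes gave 41 calls in the 3-genotype ratio and 27 in WT. Same-numbered animals deviated together at r = -0.01, -0.08 and -0.04 in INPUT and -0.33, -0.28 and 0.51 in the ratio. The value of 0.51 was that of CPEB4 GT/+ with CPEB4 KO. With so few animals per genotype, these values cannot decide whether the numbers pair animals. The block gave 17 members at an unadjusted p under 0.05 in CPEB4 KO minus WT, against 11.

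Sign changes in the 3-genotype ratio were these. Alignment on the hybridisation controls gave Psmb9 -0.048, Psmd11 -0.40 and Psme3 -0.26, and centring on all probe sets Psmd11 -0.024. Centring on the kept genes gave Psmd1 0.059, Psmd3 0.094, Psmd5 0.088, Psmd9 0.27 and Psmf1 0.13, and quantile normalization Psmd3 0.027, Psmd5 0.048 and Psmf1 0.063. The mean of probe sets gave Psmd7 0.18 and Psmd9 0.39. Between genotypes, alignment on the controls gave Psmd11 -0.073 and Psme3 -0.12 (CPEB4 KO minus WT) and Psmd7 -0.12 and Psmd9 -0.071 (CPEB4 KO minus CPEB4 GT/+). With animals left out, Psme3 ranged from -0.066 to 0.17 in CPEB4 KO minus WT, Psmb7 from -2.40 to 0.32 and Psmb9 from -0.11 to 0.50 in CPEB4 GT/+ minus WT, and Psme1 from -0.23 to 0.83, Psmd9 from -0.094 to 0.41 and Psmd7 from -0.41 to 0.65 in CPEB4 KO minus CPEB4 GT/+. In INPUT, CPEB4 KO minus WT gave Psmd9 0.0081 with the mean of probe sets and Psmd14 0.014 and Psma3 0.021 after alignment on the controls, and CPEB4 KO minus CPEB4 GT/+ then gave Psma3 0.037, Psmd13 0.036 and Psmd14 0.062. The cause of these changes was not tested.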
